A study of Mus musculus with 77 samples.

Results

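Macrophages grown from the bone marrow of DBA/2J (DBA) mice and kept in room air were compared with those of C57BL/6J (B6) mice. RNA-seq libraries were chosen by their strain and room-air labels, 2 of each strain, out of 12 macrophage RNA libraries and 77 samples in the series. All 24940 transcripts of the deposited macrophage table were members, and 12320 of them reached 1 TPM (a length-corrected share of a library's transcripts) in at least 2 of the 12 libraries and were tested. The other macrophage groups, also 2 libraries each, were Trem2 knockout cells in room air and DBA, B6 and knockout cells in hyperoxia, all labelled 24 hours. The sample labels used here state neither the oxygen level used for cultured cells nor the age of the marrow donors. All 12 macrophage column names, room air included, carry the mark invitro 95, with no unit. DBA/2J is an inbred line, here from the Jackson Laboratory, and the knockout is a Jackson line made on C57BL/6J. The study also holds lungs of 14-day-old DBA and B6 pups raised in room air, and these serve here as another tissue.

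Bone marrow progenitors become macrophages in culture under colony-stimulating factor 1, and the cells then display, engulf and digest material and present antigen through major histocompatibility complex (MHC) proteins. DBA/2J and C57BL/6J differ at many of the loci involved: they carry different MHC haplotypes (H2d and H2b), different clusters of interferon-inducible DNA sensors and different sets of paired immune receptors. DBA/2J mice carry a premature stop codon in Gpnmb, and C57BL/6J mice carry a deletion within Nnt and a loss-of-function allele of Slc11a1. The reads of both strains were aligned to mm10, which is the C57BL/6J genome, so a DBA transcript with many sequence differences could lose reads. The part of that in the results was not tested.

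The libraries were macrophages by their markers. The summed level of 20 macrophage identity genes was 26403 and 26657 TPM in DBA libraries, 35259 and 36233 TPM in B6 libraries and 26368 and 27598 TPM in room-air knockout libraries. In both strains Lyz2 was the highest of them. Depth, estimated from the smallest step between low values, was 14.6 to 47.0 M reads a library. The DBA libraries had 18.3 and 16.7 M reads and the B6 libraries 14.6 and 36.7 M reads. The column names give the B6 libraries one date code and the DBA and knockout libraries another, so strain and date code cannot be told apart in the comparison of DBA with B6. The knockout libraries carry the date code of DBA on a C57BL/6J background, and their values therefore stand beside most room-air results. Trem2 itself was 1096 and 1030.3 TPM in DBA, 948 and 962 TPM in B6 and 236 and 239 TPM in knockout libraries. One B6 library is marked F and the other libraries MF: Ddx3y, on the Y chromosome, was 15.6 and 21.3 TPM in DBA, 9.7 and 0.246 TPM in B6 (the library marked MF first, as throughout) and 11.2 and 10.5 TPM in the knockout. No label says that the 2 libraries of a group came from separate animals. The p-values therefore measure the spread between libraries of a group, pooled over the 6 macrophage groups, which may be technical. In B6 this spread also holds the difference between the libraries marked MF and F.

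Of the 12320 genes tested, 7003 (56.8%) were called at an adjusted p under 0.05 (limma, Benjamini-Hochberg), 5011 higher in DBA (40.7%) and 1992 lower (16.2%). The libraries of the strains did not overlap in 9043 genes (73.4%). Many of the differences were small: 2780 of the calls were under 0.5 on the log2(TPM + 1) scale, the scale of all log2 fold changes given here, and 1395 reached 1. The median log2 fold change over all genes tested was 0.189, and with quantile normalisation, which sets the libraries to 1 distribution, the calls were 3257 higher and 3081 lower. The share of calls that were higher was 71.6%, against 51.4% under quantile normalisation. The libraries of a strain were close to each other, with a Pearson correlation over genes of 0.994 in DBA and 0.995 in B6, and 0.970 to 0.972 between the strains. DBA and knockout libraries correlated at 0.984 to 0.985.

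The knockout libraries lay nearer to DBA than to B6 in 4846 of the 7003 calls (69.2%) and nearer to B6 in 2157. Their C57BL/6J background is shared with B6 and their date code with DBA, so the calls were also counted by a stricter rule, in which a gene had to differ from B6 and from the knockout in the same direction. Against the knockout alone 3095 genes (25.1%) were called, 1855 higher in DBA (15.1%) and 1240 lower (10.1%). By the stricter rule 1914 genes (15.5%) were called, 1276 higher in DBA (10.4%) and 638 lower (5.18%). This second comparison uses the same DBA libraries as the first and also crosses the Trem2 genotype. Of these genes 150 differed from B6 by at least 2 on the log2 scale (1.22% of the genes tested), 89 higher and 61 lower. Chromosome 17, which carries the MHC, held 29 of the 150 among 674 genes tested (4.30%), and chromosome 7, which carries the Pir receptor and Trim clusters, held 22 among 960 (2.29%). The X chromosome held 0 of them among 394. For each gene list below, the shares over all genes are 40.7% higher and 16.2% lower, and 10.4% and 5.18% by the stricter rule. A gene below 1 TPM in every DBA or every B6 library passed the level filter only through other groups. The direction of its call was then largely set in advance. The counts of several lists hold such genes, among them Trim12a, Trim5, Cd22, Serping1 and Adm, whose values are given below.

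**Figure D1:**
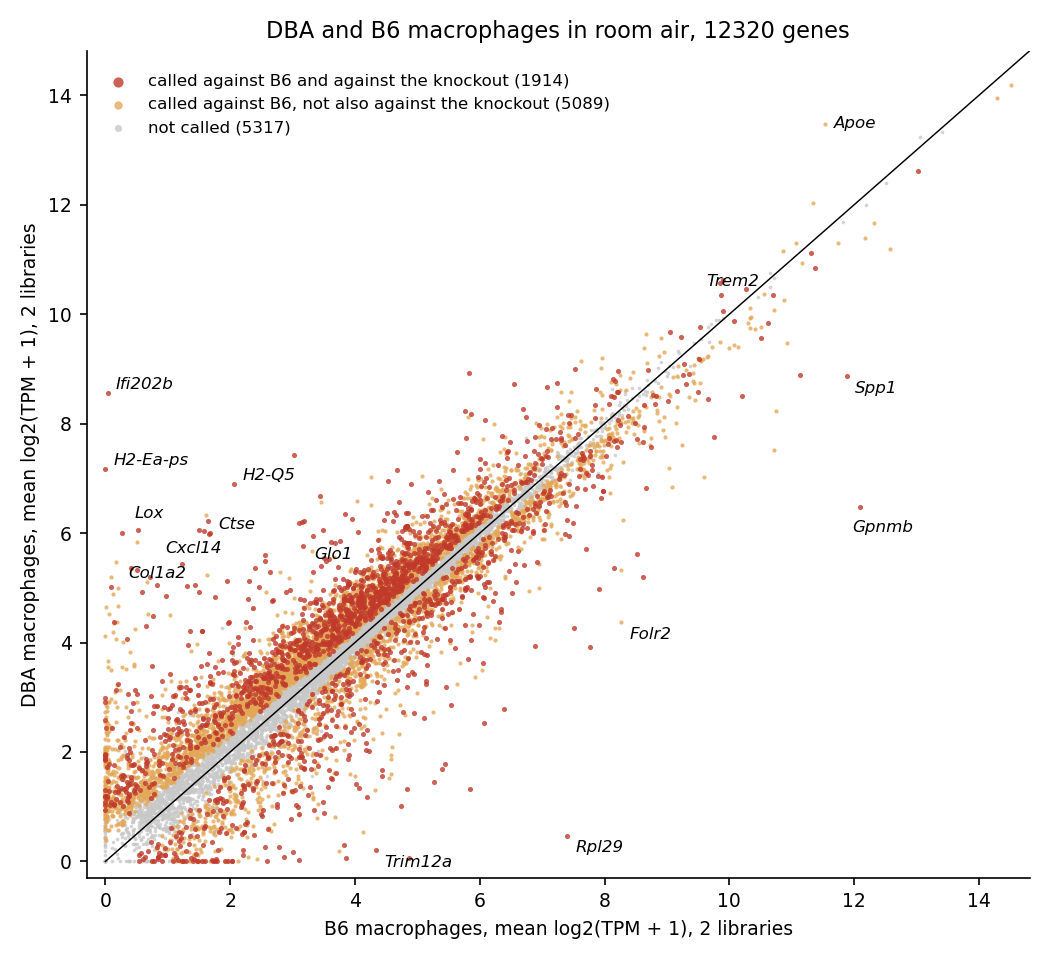
Mean log2(TPM + 1) of each of 12320 genes in DBA macrophages (vertical axis) against B6 macrophages (horizontal axis), 2 libraries each; the line marks equal values. Ifi202b and H2-Ea-ps stand far above the line near a B6 level of 0, and Rpl29 and Gpnmb stand far below it; red genes are the 1914 called against both B6 and the knockout.

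The largest rise was in Ifi202b (chromosome 1, positions 173962569 to 173982844 on mm10), an interferon-inducible DNA-binding protein of the p200 family that is known to be little expressed in C57BL/6 mice. Ifi202b was 311 and 455 TPM in DBA, 0.049 and 0 TPM in B6 and 0.103 and 0.063 TPM in the knockout, with a log2 fold change over B6 of 8.53 ± 0.16 (SE) and an adjusted p of 1.18e-09. H2-Ea-ps (chromosome 17, positions 34342212 to 34344645) is the MHC class II alpha chain gene of the E molecule, a pseudogene in C57BL/6J. Its level was 153 and 134 TPM in DBA libraries (adjusted p = 9.6e-11), and it was listed at 0 in both B6 and both knockout libraries. Both genes were thus high in every DBA library and at or near 0 in every library of C57BL/6J background, whatever the date code.

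Several other rises had this form. Clmp, an adhesion molecule of the junction family, was 38.7 and 39.9 TPM in DBA, 0.416 and 0.413 TPM in B6 and 2.16 and 1.47 TPM in the knockout (log2 fold change 4.83 ± 0.12 (SE)). Ctse, the endosomal aspartic protease cathepsin E, was 71.9 and 75.6 TPM in DBA, 2.18 and 2.04 TPM in B6 and 4.94 and 6.02 TPM in the knockout (log2 fold change 4.59 ± 0.11 (SE)). Cxcl14, a chemokine of many tissues, was 69.6 and 61.8 TPM in DBA, 1.86 and 1.8 TPM in B6 and 1.37 and 1.55 TPM in the knockout (log2 fold change 4.56 ± 0.10 (SE)). In all of them the DBA libraries stood above the other 4 with no overlap. Slc22a4, a transporter of ergothioneine and carnitine, reached 64.9 and 64.1 TPM in DBA, 1.6 and 2.46 TPM in B6 and 2.42 and 2.04 TPM in the knockout. Atp6v0e2, a subunit of the vacuolar proton pump, reached 19.8 and 19.6 TPM in DBA, 0.095 and 0.113 TPM in B6 and 0.101 and 0.124 TPM in the knockout.

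Among the falls, Gpnmb (chromosome 6, positions 49036518 to 49058182), a transmembrane glycoprotein of lysosomes in lipid-laden macrophages, was 89.7 and 87.2 TPM in DBA, 3517 and 5461 TPM in B6 and 2465 and 2457 TPM in the knockout. Its log2 fold change was -5.61 ± 0.20 (SE) with an adjusted p of 3.44e-08, and mean TPM was 50.7 times higher in B6 than in DBA. Trim12a (chromosome 7, positions 104299897 to 104315495), of the mouse family related to the retroviral restriction factor Trim5, was 0.145 and 0.162 TPM in DBA, 21.4 and 17.1 TPM in B6 and 33.5 and 33.5 TPM in the knockout (log2 fold change -4.13 ± 0.10 (SE)). For this gene the B6 and knockout libraries were all far above the DBA libraries.

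Mcoln3, a cation channel of endosomes and lysosomes, was 0.086 and 0 TPM in DBA, 11.4 and 15.7 TPM in B6 and 13.1 and 11.4 TPM in the knockout. Qpct, glutaminyl cyclase, which modifies chemokines, was 1.46 and 1.52 TPM in DBA, 52.3 and 61.4 TPM in B6 and 4.84 and 4.68 TPM in the knockout. Cyp4f18, a cytochrome P450 that breaks down leukotriene B4, was 0.087 and 0.389 TPM in DBA, 12.4 and 13.8 TPM in B6 and 17.1 and 17.8 TPM in the knockout. For Mcoln3 and Cyp4f18 the knockout libraries stood with B6, and for Qpct they lay between the strains, nearer to DBA. Folr2, the folate receptor of tissue macrophages, was different: it was 21.7 and 18 TPM in DBA, 264 and 358 TPM in B6 and 22.3 and 18.9 TPM in the knockout, so the DBA and knockout libraries shared the low level.

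Rpl29, a ribosomal protein gene, showed the largest fall, with 0.503 and 0.282 TPM in DBA, 177 and 160.3 TPM in B6 and 137 and 151 TPM in the knockout (log2 fold change -6.93 ± 0.09 (SE)). Rpl29, Rpsa, Hmga1, Hmga1b and Atp6v0c-ps2 have near-identical processed copies elsewhere in the genome, to which reads of one strain may be assigned, and Sfi1 and Atp5g2 likewise carry copies, so these values are uncertain as levels of the gene itself. Sfi1, a centrin-binding protein, was 168 and 176 TPM in DBA, 7.5 and 6.79 TPM in B6 and 13.5 and 14.5 TPM in the knockout. Hmga1, a chromatin protein, was 19.1 and 17.2 TPM in DBA, 173 and 189 TPM in B6 and 89.4 and 92.7 TPM in the knockout.

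**Figure D2:**
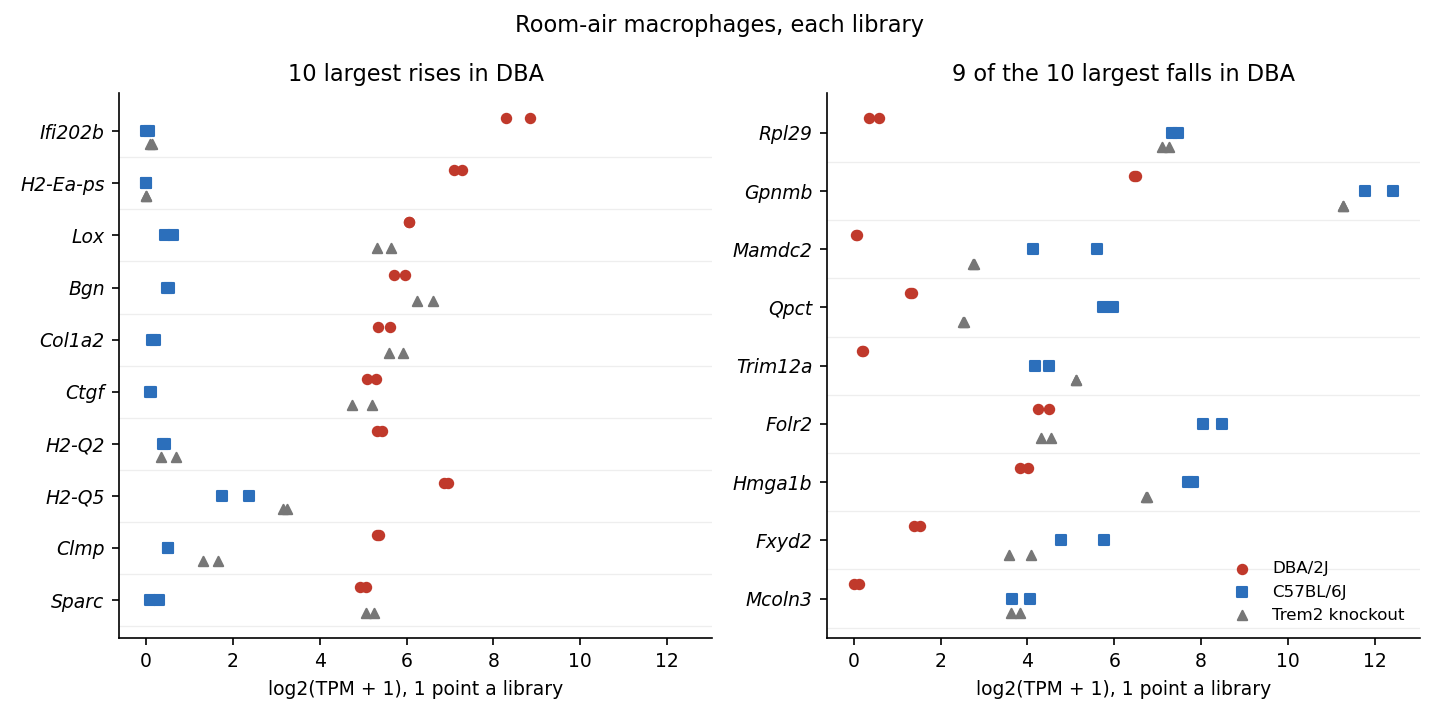
log2(TPM + 1) of the 10 largest rises (left panel) and 9 of the 10 largest falls (right panel) in every room-air library, 1 point a library, with DBA as circles, B6 as squares and Trem2 knockout as triangles. The knockout points sit with B6 for Ifi202b, H2-Ea-ps, H2-Q2, H2-Q5, Clmp, Rpl29, Gpnmb, Trim12a and Mcoln3, and with DBA for the matrix genes Bgn, Col1a2, Ctgf and Sparc and for Folr2.

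By the level in the other strain, 54 genes averaged at least 5 TPM in DBA and were below 0.5 TPM in both B6 libraries. Of these, 8 were also below 0.5 TPM in both knockout libraries: Ifi202b, H2-Ea-ps, Atp6v0e2, Chst10 (a sulfotransferase), Trim34b, Gm11127, Tmem181c-ps and 2410017I17Rik. In 35 of the 54 the knockout mean was at least 5 TPM, and 11 lay between. In the other direction 11 genes averaged at least 5 TPM in B6 and were below 0.5 TPM in both DBA libraries. In 8 of those the knockout mean was at least 5 TPM, among them Cd22 (an inhibitory Siglec), Trim12a, Mcoln3, Cyp4f18, Fggy and Mamdc2, and 2, Nptx1 and Slco4a1, were below 0.5 TPM in both knockout libraries.

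Of 14 genes listed for known functional alleles of the strains, 8 were tested, and 6 were higher and 2 lower in DBA, with 2 and 2 called against the knockout as well. Gpnmb and H2-Ea-ps are given above. Glo1, glyoxalase 1, which lies in a segment duplicated in DBA/2J, was 38.4 and 38.1 TPM in DBA, 16.4 and 15.6 TPM in B6 and 16.8 and 16.3 TPM in the knockout, so the DBA mean was 2.39 times that of B6 (log2 fold change 1.21 ± 0.07 (SE), adjusted p = 8.64e-07). Apobec3, a cytidine deaminase that restricts retroviruses, was 22.1 and 23.2 TPM in DBA, 41.8 and 27.9 TPM in B6 and 45.4 and 48.1 TPM in the knockout (log2 fold change -0.57 ± 0.17 (SE), adjusted p = 0.0157). Both genes separated DBA from the other 4 libraries, but Apobec3 lost its call without the B6 library marked MF (log2 fold change -0.29, adjusted p = 0.112) without DBA replicate 1 (-0.54, adjusted p = 0.0682) and with only the 4 room-air libraries of the strains in the limma fit (adjusted p = 0.0658).

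Slc11a1, a phagosomal metal transporter with a loss-of-function allele in C57BL/6J, was 249 and 239.9 TPM in DBA, 148 and 195 TPM in B6 and 239 and 216 TPM in the knockout (log2 fold change 0.52, adjusted p = 0.00331). Nnt, the mitochondrial transhydrogenase, was 13.9 and 13.2 TPM in DBA, 11.7 and 11 TPM in B6 and 11.4 and 11.9 TPM in the knockout. Its log2 fold change over B6 of 0.23 (adjusted p = 0.0384) became -0.00387 (adjusted p = 0.972) under quantile normalisation. Its call was also lost with any 1 of the 4 libraries left out (adjusted p = 0.0563 without B6 MF, 0.154 without B6 F, 0.131 without DBA 1 and 0.0560 without DBA 2), and with only these 4 in the fit (adjusted p = 0.146). Gene-level values do not show which exons the Nnt reads came from. Ahr, the aryl hydrocarbon receptor, whose DBA allele binds ligand weakly, was 3.48 and 3.23 TPM in DBA, 1.41 and 1.74 TPM in B6 and 2.81 and 3.42 TPM in the knockout. Myo5a, which carries the dilute coat-colour mutation in DBA, was 112 and 122 TPM in DBA, 58.7 and 62.5 TPM in B6 and 126 and 128 TPM in the knockout, near the DBA level. Hc and Klrd1, complement C5 and the NK receptor chain CD94, are known to be defective in DBA/2J and were not tested because they were below the level filter in macrophages.

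In the MHC class I family, whose members present peptides or serve as ligands of NK receptors, 20 of 30 genes tested were higher in DBA and 7 lower, with a median log2 fold change of 0.642 against 0.189 over all genes. Against both B6 and the knockout, 15 were higher and 5 lower, beside 10.4% and 5.18% of all genes. The Q region led. H2-Q5 was 123 and 115 TPM in DBA, 4.2 and 2.37 TPM in B6 and 8.44 and 7.84 TPM in the knockout (log2 fold change 4.84 ± 0.16 (SE)). H2-Q2 was 38.7 and 41.9 TPM in DBA, 0.318 and 0.348 TPM in B6 and 0.621 and 0.259 TPM in the knockout (log2 fold change 4.95 ± 0.15 (SE)). H2-Q10 was 32.7 and 26.4 TPM in DBA, 0.533 and 0.471 TPM in B6 and 0.589 and 0.444 TPM in the knockout. Class I genes are near-identical copies that differ in number between H2d and H2b, and the reference holds H2b, so the assignment of reads to single members (the pairs H2-Q6 and H2-Q8, H2-Q7 and H2-Q9, and H2-D1 and H2-L among them) is uncertain. The summed level of the list overlapped between the strains, at 10778 and 10863 TPM in DBA, 11464 and 10374 TPM in B6 and 13048 and 13224 TPM in the knockout.

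In MHC class II, whose products present peptides to helper T cells, 4 of 9 genes tested were higher in DBA and 1 lower, beside 40.7% and 16.2% of all genes. H2-Aa was 237 and 197 TPM in DBA, 67.4 and 104 TPM in B6 and 281 and 294 TPM in the knockout (log2 fold change 1.36 ± 0.17 (SE), adjusted p = 0.00012). H2-Eb1, the partner chain of the E molecule, was 87.8 and 71.5 TPM in DBA, 29.9 and 37.9 TPM in B6 and 117 and 121 TPM in the knockout. For these chains the knockout libraries were above those of DBA, and H2-Ea-ps was the one class II gene higher than both. H2-DMb1, a peptide-exchange chaperone that shares reads with H2-DMb2, was 13 and 8.15 TPM in DBA, 23.2 and 26.5 TPM in B6 and 25.5 and 25 TPM in the knockout (log2 fold change -1.19).

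Besides Ifi202b, the p200 (Ifi200) family on chromosome 1 held single members with large differences in both directions. Of 13 family and DNA-sensor genes tested, 4 were higher in DBA and 3 lower, beside 40.7% and 16.2% of all genes. Against the knockout as well, 1 was higher and 3 lower, beside 10.4% and 5.18% of all genes. The higher one, Ifi202b, stayed below 1 TPM in every B6 and knockout library. Ifi213, one of those lower, stayed below 1 TPM in every DBA library. Both passed the level filter only through groups where they were higher, so these directions were largely set in advance. Under quantile normalisation the counts against B6 were 4 and 4. Mndal was 1.7 and 2.81 TPM in DBA, 52.9 and 31.7 TPM in B6 and 91.5 and 87.1 TPM in the knockout (log2 fold change -3.71 ± 0.23 (SE), adjusted p = 1.36e-06). Ifi213 was 0.109 and 0.368 TPM in DBA, 2.79 and 1.29 TPM in B6 and 11.5 and 10.5 TPM in the knockout (log2 fold change -1.26). Ifi211 was 33.2 and 44.3 TPM in DBA, 17.8 and 12.6 TPM in B6 and 32.7 and 30.9 TPM in the knockout (log2 fold change 1.30). Family members have copies of similar sequence and differ in number between strains, so their counts may mix.

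The promoter windows of Ifi202b, Mndal and Trim12a are shown because these genes had the largest strain differences among the interferon-inducible genes. They run 250 bases before to 50 bases after the transcript start, in RefSeq sequence of the C57BL/6J reference (GRCm38.p6), all from the minus strand: Ifi202b at chr1:173982795-173983094, Mndal at chr1:173880138-173880437 and Trim12a at chr7:104315446-104315745. Capitals mark matches, on either strand, to the interferon-stimulated response element, that is GAAA, any 2 bases and GAAA, the site of the interferon-activated factor ISGF3.
Ifi202b: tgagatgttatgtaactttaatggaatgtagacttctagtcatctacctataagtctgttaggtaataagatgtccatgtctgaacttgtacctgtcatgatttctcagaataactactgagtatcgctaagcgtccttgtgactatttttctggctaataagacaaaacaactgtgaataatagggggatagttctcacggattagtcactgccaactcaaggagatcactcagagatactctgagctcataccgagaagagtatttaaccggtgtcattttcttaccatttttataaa
Mndal: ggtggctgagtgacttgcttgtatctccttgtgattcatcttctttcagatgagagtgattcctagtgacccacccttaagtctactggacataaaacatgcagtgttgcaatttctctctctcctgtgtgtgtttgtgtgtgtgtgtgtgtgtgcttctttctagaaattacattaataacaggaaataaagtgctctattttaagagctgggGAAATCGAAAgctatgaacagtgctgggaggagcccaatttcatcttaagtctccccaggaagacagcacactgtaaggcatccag
Trim12a: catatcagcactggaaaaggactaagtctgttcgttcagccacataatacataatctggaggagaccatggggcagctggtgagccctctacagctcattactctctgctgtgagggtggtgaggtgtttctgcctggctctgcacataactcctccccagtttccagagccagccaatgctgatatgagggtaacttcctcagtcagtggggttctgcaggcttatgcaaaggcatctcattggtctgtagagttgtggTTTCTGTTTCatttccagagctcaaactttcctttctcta
The Mndal window held 1 match, read on the transcript strand, and the Trim12a window held 1, read as its reverse complement. The Ifi202b window of the B6 reference held 0. Of all 27025 windows 943 (3.49%) held this motif, and of 51 interferon-stimulated genes with a window 30 (58.8%) did. These are the reference letters, and the DBA sequence of these windows was not used here.

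Over the broader list of interferon-stimulated genes, 36 of 63 tested were higher in DBA and 9 lower, with a median log2 fold change of 0.547, yet against both B6 and the knockout the counts were 3 and 8. Xaf1, a pro-apoptotic interferon-induced protein, was one of the 3: it was 63.8 and 67.9 TPM in DBA, 13 and 8.02 TPM in B6 and 18.1 and 17.2 TPM in the knockout (log2 fold change 2.57 ± 0.18 (SE)). Slfn1, a Schlafen gene of immune cells, was 12.8 and 16.8 TPM in DBA, 1.84 and 1.72 TPM in B6 and 16.3 and 12.8 TPM in the knockout, so its difference from B6 was shared with the knockout. Trim5, next to Trim12a on chromosome 7 and close to it in sequence, was 0.353 and 0.066 TPM in DBA, 5.37 and 4.43 TPM in B6 and 10.7 and 11 TPM in the knockout.

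The interferon-inducible GTPases, which attack vacuoles of intracellular microbes, gave 4 higher and 3 lower of 15 tested, and 0 and 3 against the knockout too. Under quantile normalisation the counts against B6 were 0 and 3. Gbp9 was 1.05 and 1.77 TPM in DBA, 7.8 and 4.82 TPM in B6 and 18.6 and 17.8 TPM in the knockout (log2 fold change -1.58). Gbp8 was 0.149 and 0.301 TPM in DBA, 1.38 and 1.21 TPM in B6 and 5.02 and 4.84 TPM in the knockout (log2 fold change -0.91). Gbp8 stayed below 1 TPM in every DBA library and passed the level filter only through other groups, so its direction was largely set in advance.

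Of 23 NOD-like receptor and inflammasome genes tested, 11 were higher in DBA and 4 lower, and 1 and 2 by the stricter rule. Over all genes the shares were 40.7% and 16.2%, and 10.4% and 5.18% by the stricter rule. Nlrp1b, the sensor of anthrax lethal factor, whose alleles differ among inbred mice, was 1.94 and 1.27 TPM in DBA, 12.6 and 9.28 TPM in B6 and 30.2 and 29.9 TPM in the knockout (log2 fold change -2.20 ± 0.17 (SE)). Nlrc4, which assembles an inflammasome on bacterial flagellin, was 13.4 and 16.4 TPM in DBA, 5.8 and 6.64 TPM in B6 and 12.2 and 10.3 TPM in the knockout (log2 fold change 1.14). Nlrp1b was thus lowest in DBA, while Nlrc4 was high in DBA and in the knockout alike. Under quantile normalisation 5 members were higher and 6 lower.

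**Figure D3:**
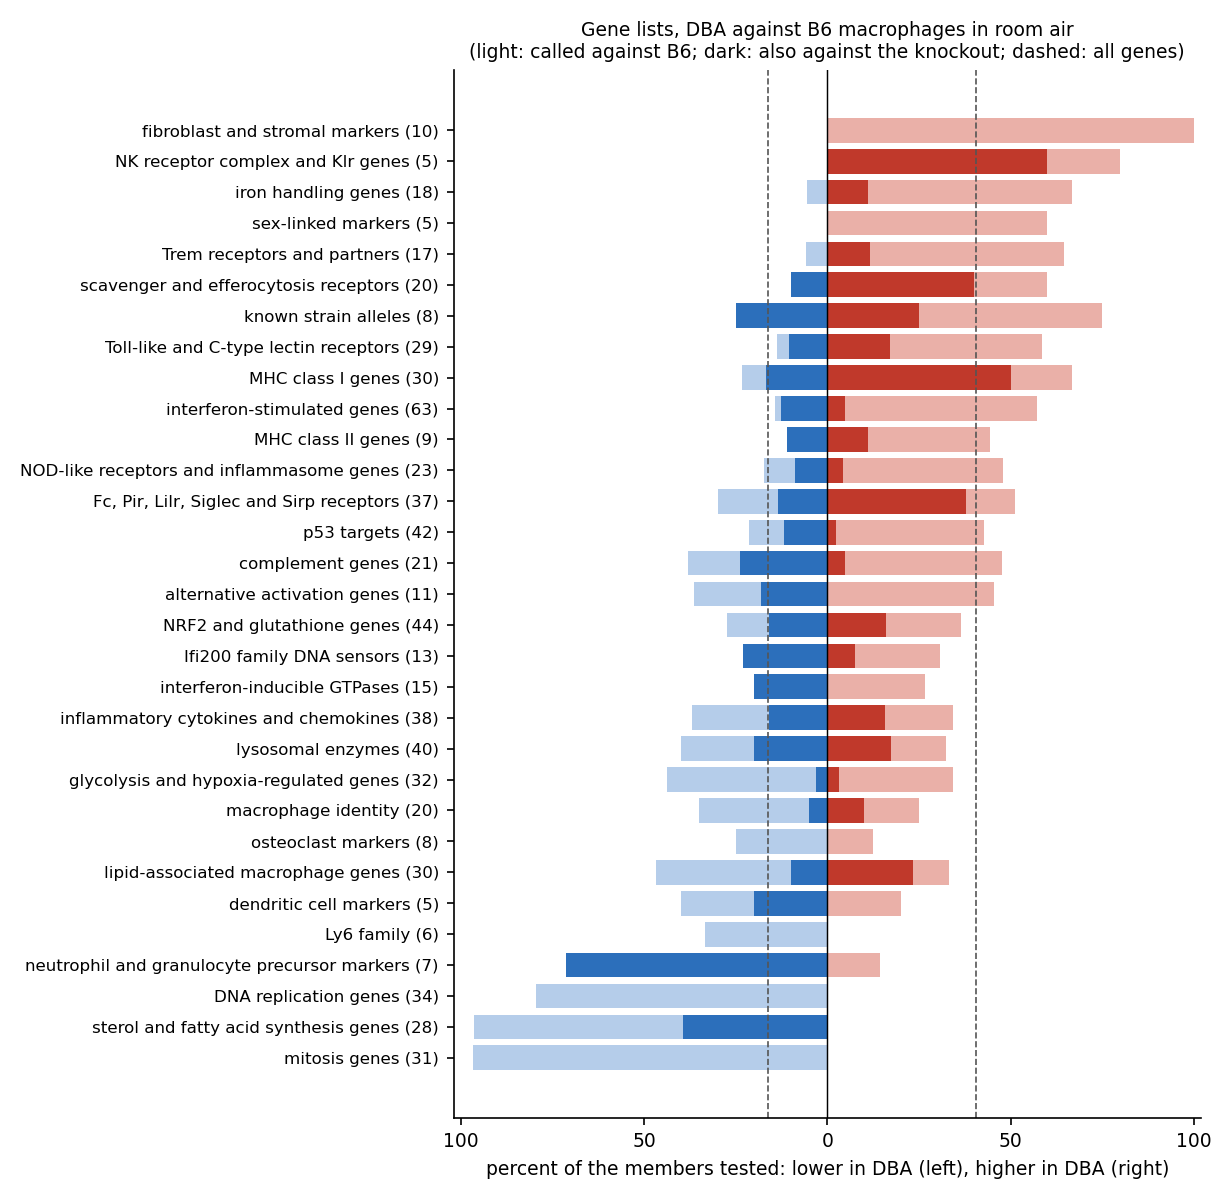
For each gene list with at least 5 members tested, the percentage of members called higher (right) and lower (left) in DBA than in B6, with the number tested in parentheses; dark bars are members called against the knockout too, and dashed lines mark the shares over all genes, 40.7% higher and 16.2% lower. The stromal list reaches the right edge and the sterol and mitosis lists nearly reach the left, with no dark members in the stromal and mitosis lists.

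Receptors that sense Fc, MHC, sialic acid and CD47 (the Fc, Pir, Lilr, Siglec and Sirp families) were higher in DBA for 19 of 37 tested and lower for 11, and 14 and 5 by the stricter rule. Over all genes the shares were 40.7% and 16.2%, and 10.4% and 5.18% by that rule. Pira11, an activating paired immunoglobulin-like receptor on chromosome 7, was 69 and 77.5 TPM in DBA, 7.93 and 7.81 TPM in B6 and 6.03 and 6.25 TPM in the knockout (log2 fold change 3.06 ± 0.09 (SE)). Pira6 and Pira1 had nearly the same values, with log2 fold changes of 3.03 and 2.93, and the 3 genes share most of their sequence, so they may not be separate observations. Cd22 was 0.106 and 0.158 TPM in DBA, 4.38 and 10.9 TPM in B6 and 10.5 and 10.5 TPM in the knockout (log2 fold change -2.82 ± 0.35 (SE)). Fcgrt, the neonatal Fc receptor that spares antibody from degradation, was 446 and 399.6 TPM in DBA, 106 and 81.3 TPM in B6 and 286 and 301 TPM in the knockout, and it was chosen after its values were seen. All of these separated DBA from the other 4 libraries.

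Toll-like and C-type lectin receptors, which bind microbial products, were higher in 17 and lower in 4 of 29 tested, and in 5 and 3 by the stricter rule. Tlr1, the partner of Tlr2 for bacterial lipopeptides, was 8.05 and 8.15 TPM in DBA, 46.3 and 39.6 TPM in B6 and 35.7 and 35.2 TPM in the knockout (log2 fold change -2.27 ± 0.09 (SE), adjusted p = 5.83e-08). Clec4b1 was 26.4 and 25.4 TPM in DBA, 5.25 and 5.47 TPM in B6 and 4.84 and 5.82 TPM in the knockout. Clec4n, Dectin-2, which binds fungal mannans, was 119.9 and 139.8 TPM in DBA, 27.6 and 11.7 TPM in B6 and 103 and 104 TPM in the knockout, so the knockout shared its high level. Its log2 fold change of 2.77 was 3.36 without the B6 library marked MF and 2.19 without that marked F. In the NK gene complex of chromosome 6, 4 of 5 genes tested were higher in DBA and 0 lower, and 3 by the stricter rule. Klra3, a receptor for class I MHC, was 7.93 and 10.7 TPM in DBA, 1.22 and 2.31 TPM in B6 and 3.2 and 2.96 TPM in the knockout, and Clec2i, a ligand of NK receptors, was 26.4 and 34.1 TPM in DBA, 7.02 and 6.49 TPM in B6 and 9.7 and 13.1 TPM in the knockout.

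Scavenger and efferocytosis receptors, through which macrophages take up modified lipoproteins and dying cells, were higher in 12 and lower in 2 of 20 tested, and in 8 and 2 by the stricter rule. Marco, a class A scavenger receptor, was 18.4 and 19.1 TPM in DBA, 0.682 and 0.47 TPM in B6 and 3.46 and 2.04 TPM in the knockout (log2 fold change 3.65 ± 0.20 (SE)). Stab2, a hyaluronan and apoptotic-cell receptor, was 31.9 and 32.5 TPM in DBA, 1.27 and 2.23 TPM in B6 and 3.6 and 2.89 TPM in the knockout (log2 fold change 3.62 ± 0.19 (SE)). Mfge8, the bridge that tags dying cells for uptake, moved the other way, with 34.2 and 27.1 TPM in DBA, 152 and 379 TPM in B6 and 83.4 and 76.4 TPM in the knockout (log2 fold change -2.94 ± 0.41 (SE), -3.59 without the B6 library marked MF and -2.28 without that marked F).

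Complement genes split: 10 of 21 tested were higher in DBA and 8 lower (7 and 8 under quantile normalisation), and 1 and 5 by the stricter rule. C1qb, a chain of the C1q recognition molecule, was 502 and 446 TPM in DBA, 2486 and 2022 TPM in B6 and 2795 and 2832 TPM in the knockout (log2 fold change -2.24 ± 0.14 (SE), adjusted p = 1.32e-06). C5ar2, a receptor for the C5a fragment, was 0.956 and 1.77 TPM in DBA, 8.36 and 8.7 TPM in B6 and 10.1 and 8.78 TPM in the knockout (log2 fold change -2.03). Serping1, the C1 inhibitor, was 5.29 and 6.88 TPM in DBA, 0.144 and 0.381 TPM in B6 and 5.63 and 5.59 TPM in the knockout. The C1q and C5a receptor genes were lowest in DBA, whereas the high Serping1 was shared with the knockout.

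Of 38 cytokine and chemokine genes tested, 13 were higher and 14 lower, and 6 and 6 by the stricter rule. Spp1, osteopontin, was 439.8 and 493 TPM in DBA, 3804 and 3756 TPM in B6 and 1021 and 984 TPM in the knockout (log2 fold change -3.02 ± 0.08 (SE)), lowest in DBA and highest in B6. Gdf15, a stress-induced cytokine, was 5.03 and 2.34 TPM in DBA, 20.0 and 14.6 TPM in B6 and 38.5 and 32.8 TPM in the knockout (log2 fold change -2.01). Il1rn, the interleukin-1 receptor antagonist, was 8.9 and 9.74 TPM in DBA, 50.0 and 71.3 TPM in B6 and 11 and 9.79 TPM in the knockout. Csf1, the macrophage growth factor, was 32.8 and 26.5 TPM in DBA, 6.56 and 3.65 TPM in B6 and 47.2 and 38.6 TPM in the knockout, high in both groups with the same date code.

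Genes of lipid-associated macrophages, a state named for cells of fatty tissue and plaques, were higher in 10 and lower in 14 of 30 tested, and in 7 and 3 by the stricter rule. Gpnmb and Spp1, both given above, had the largest falls, and Itgax, an integrin chain, was 8.72 and 8.14 TPM in DBA, 28.4 and 83.5 TPM in B6 and 4.67 and 4.08 TPM in the knockout, with a log2 fold change of -2.40 that was -3.16 without the B6 library marked MF and -1.64 without that marked F. Apoe, the lipid carrier of lipoproteins, went the other way, with 12450.2 and 10538 TPM in DBA, 2403 and 3657 TPM in B6 and 8235 and 7753 TPM in the knockout (log2 fold change 1.95 ± 0.18 (SE), adjusted p = 1.73e-05). Among 17 Trem receptor genes and partners tested, Apoe included, 11 were higher and 1 lower, and 2 and 0 by the stricter rule. Ms4a4a, a membrane protein linked to soluble Trem2 levels in humans, was 82.1 and 99.5 TPM in DBA, 24.7 and 13.2 TPM in B6 and 159 and 173 TPM in the knockout.

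Lysosomal enzymes were higher in 13 and lower in 16 of 40 tested, and in 7 and 8 by the stricter rule. After Ctse, the largest rise was Ctsc, the protease that activates granule serine proteases, with 88.6 and 98.9 TPM in DBA, 28.2 and 22.3 TPM in B6 and 58.1 and 58.7 TPM in the knockout (log2 fold change 1.86 ± 0.10 (SE)). Ctsk, the collagen-degrading cathepsin K, was 8.0 and 7.55 TPM in DBA, 16.7 and 36.3 TPM in B6 and 5.32 and 5.89 TPM in the knockout (log2 fold change -1.55; -1.01 with adjusted p = 0.0654 without the B6 library marked F). Sgsh, which degrades heparan sulfate, was 83.9 and 79.1 TPM in DBA, 30.7 and 24.2 TPM in B6 and 59.6 and 60.7 TPM in the knockout.

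Within the macrophage identity list 5 of 20 genes were higher in DBA and 7 lower, and 2 and 1 by the stricter rule. Cd63, a lysosomal tetraspanin, was 346 and 349 TPM in DBA, 752 and 859 TPM in B6 and 604 and 602 TPM in the knockout (log2 fold change -1.21). Lgals3, galectin-3, was 2435 and 2242 TPM in DBA, 5509 and 6702 TPM in B6 and 2729 and 2545 TPM in the knockout. Mertk, of the same list, went the other way, with 66.4 and 64.8 TPM in DBA, 25.5 and 31.4 TPM in B6 and 103.6 and 95.6 TPM in the knockout (log2 fold change 1.18). Quantile normalisation turned the split of this list to 8 higher and 4 lower.

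In the stromal, sterol and cell division lists nearly all members differed from B6 in 1 direction, and the knockout lay on the same side of B6 as DBA. Fibroblast and stromal markers were higher in DBA for 10 of 10 tested, with a median log2 fold change of 3.26, and 0 of the 10 passed the stricter rule in either direction. Col1a1, Col1a2, Acta2, Cxcl12, Dcn, Postn and Pdgfra stayed below 1 TPM in every B6 library. They passed the level filter only through DBA or knockout libraries, so the direction of their calls was largely set in advance. In room-air B6, Fn1 alone held 1.06 and 3.52 TPM of the list's sum of 2.12 and 4.66 TPM, so the other members were also low there. Col1a2, a chain of type I collagen, was 48.3 and 39.4 TPM in DBA, 0.151 and 0.1 TPM in B6 and 59.3 and 47.2 TPM in the knockout (log2 fold change 5.31 ± 0.14 (SE)). Col1a1 was 27.8 and 21 TPM in DBA, 0 and 0.023 TPM in B6 and 29.8 and 24.5 TPM in the knockout. Sparc, a matricellular glycoprotein, was 32.6 and 29.2 TPM in DBA, 0.066 and 0.236 TPM in B6 and 36.9 and 32.5 TPM in the knockout.

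The summed level of the 12 stromal markers was 217 and 191 TPM in DBA, 2.12 and 4.66 TPM in B6 and 272 and 211 TPM in the knockout. Thy1 was at 0 in both DBA libraries, and no marker of the list was at 0 in both B6 libraries. In bulk cultures, fewer cells of a type and less RNA per cell cannot be told apart. Among the leading rises Bgn, Ctgf and Lox are also matrix or matricellular genes. Lox, the collagen crosslinker lysyl oxidase, was 65.1 and 65.8 TPM in DBA, 0.355 and 0.536 TPM in B6 and 49 and 39 TPM in the knockout, and was called higher than the knockout (log2 fold change 0.57, adjusted p = 0.0491). Bgn was called lower than the knockout (log2 fold change -0.58, adjusted p = 0.0156). The part of stromal cells in the other differences was not tested.

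The sterol and fatty acid synthesis genes were lower in DBA for 27 of 28 tested and higher for 0, with a median log2 fold change of -1.45. By the stricter rule 11 were lower and 0 higher. Sqle, squalene epoxidase, was 4.36 and 6.08 TPM in DBA, 34.2 and 32.8 TPM in B6 and 7.62 and 8.17 TPM in the knockout (log2 fold change -2.49 ± 0.13 (SE), adjusted p = 4.12e-07). Scd1, the stearoyl-CoA desaturase, was 2.15 and 1.78 TPM in DBA, 11.9 and 18.7 TPM in B6 and 3.88 and 3.92 TPM in the knockout (log2 fold change -2.43). In both the knockout lay closer to DBA than to B6, and Sqle was called lower in DBA than in the knockout too (log2 fold change -0.53, adjusted p = 0.0141).

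The window of Hmgcs1, which makes the precursor of mevalonate, is shown because it was the one of 19 sterol and fatty acid genes with a RefSeq window to hold TCACNCCAC, a core of the sterol regulatory element bound by SREBP factors (5.26%, against 330 of 27025 windows, 1.22%). It lies at chr13:119690101-119690400 on the plus strand of GRCm38.p6, 250 bases before to 50 after the start, with the match in capitals; both strands were searched.
Hmgcs1: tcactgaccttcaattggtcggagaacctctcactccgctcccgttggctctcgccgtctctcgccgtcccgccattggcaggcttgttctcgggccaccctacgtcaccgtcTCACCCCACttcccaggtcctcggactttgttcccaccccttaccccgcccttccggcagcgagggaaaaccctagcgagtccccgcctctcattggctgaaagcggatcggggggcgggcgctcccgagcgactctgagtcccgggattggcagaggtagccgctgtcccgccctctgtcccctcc
Hmgcs1 itself was 28.7 and 28.5 TPM in DBA, 45.1 and 46.2 TPM in B6 and 25.7 and 24.3 TPM in the knockout (log2 fold change -0.66 ± 0.09 (SE)), so DBA and the knockout were both below B6. It was chosen for its window, after its values were seen.

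Cell division genes were lower in DBA than in B6. Mitosis genes were lower for 30 of 31 tested and higher for 0, with a median log2 fold change of -1.51, and DNA replication genes for 27 of 34 and 0, with a median of -0.82. Against the knockout alone, DNA replication genes were higher in DBA for 12 and lower for 0, with a median log2 fold change of 0.38, and mitosis genes for 4 and 1, with a median of 0.32. By the stricter rule 0 members of either list were called. Top2a, the topoisomerase of dividing cells, was 7.03 and 7.88 TPM in DBA, 38 and 24.9 TPM in B6 and 5.33 and 5.26 TPM in the knockout (log2 fold change -1.91 ± 0.22 (SE)). Mcm6, a subunit of the replicative helicase, was 12.1 and 14.2 TPM in DBA, 49 and 33.8 TPM in B6 and 17.2 and 16.8 TPM in the knockout. The summed level of the mitosis list was 115 and 104 TPM in DBA, 408 and 270 TPM in B6 and 96.4 and 104 TPM in the knockout. Every library of the earlier date code, DBA and knockout, was below both B6 libraries. The letters TTTGAA of the cell cycle genes homology region, searched on both strands, were in the windows of 20 of 26 mitosis genes with a window (76.9%), against 18.1% of all windows.

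**Figure D4:**
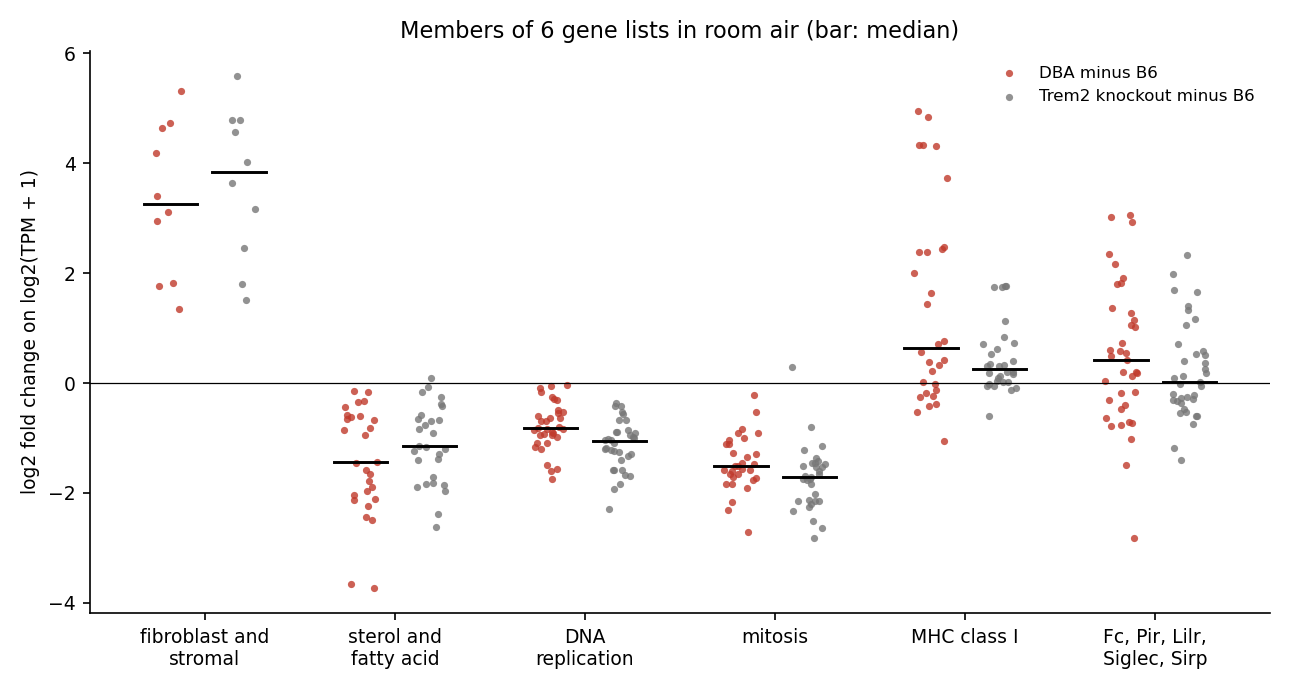
log2 fold change over B6 of every tested member of 6 gene lists in room-air macrophages, for DBA (red, left of each pair) and the Trem2 knockout (grey), with the median as a black bar. The medians of the stromal, sterol, replication and mitosis lists lie on the same side of 0 in DBA and in the knockout; both differences use the same B6 libraries.

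Antioxidant and glutathione genes under the stress factor NRF2 were higher in 16 and lower in 12 of 44 tested, and in 7 and 7 by the stricter rule. Mgst3, a microsomal glutathione transferase, was 16.2 and 15 TPM in DBA, 50.3 and 39.9 TPM in B6 and 20.7 and 24.3 TPM in the knockout (log2 fold change -1.46). Cbr3, a carbonyl reductase, was 31.2 and 31.7 TPM in DBA, 12.4 and 12.4 TPM in B6 and 12.1 and 13.3 TPM in the knockout (log2 fold change 1.28). Iron handling genes were higher in 12 and lower in 1 of 18, and in 2 and 0 by the stricter rule. Slc40a1, the iron exporter ferroportin, was 269 and 284 TPM in DBA, 57.2 and 52.8 TPM in B6 and 293 and 289 TPM in the knockout (log2 fold change 2.31 ± 0.11 (SE)), so the knockout shared the high level.

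Targets of the tumour suppressor p53, which the study followed in hyperoxia, were higher in 18 and lower in 9 of 42 tested (12 and 11 under quantile normalisation), and in 1 and 5 by the stricter rule. Trp53 itself was 53.1 and 47.3 TPM in DBA and 52.9 and 45 TPM in B6 (adjusted p = 0.798), with 43.6 and 45.8 TPM in the knockout. Its arrest target Cdkn1a was 119 and 126 TPM in DBA and 125 and 101 TPM in B6 (adjusted p = 0.444), with 103 and 101 TPM in the knockout. Neither passed the test. Ak1, an adenylate kinase, was 8.49 and 5.73 TPM in DBA, 2.44 and 1.98 TPM in B6 and 11 and 8.56 TPM in the knockout (log2 fold change 1.32). Dglucy, of the same list, was 5.02 and 4.13 TPM in DBA, 12.8 and 11.3 TPM in B6 and 11.8 and 12.0 TPM in the knockout (log2 fold change -1.23). Dglucy and Gdf15, which is given above and also on this list, were among the 5 lower by the stricter rule. Ak1 did not pass that rule. Glycolysis and hypoxia genes were higher in 11 and lower in 14 of 32, and in 1 and 1 by the stricter rule. Aldoc, an aldolase, was 1.04 and 1.54 TPM in DBA, 20.9 and 14.4 TPM in B6 and 4.81 and 6.29 TPM in the knockout (log2 fold change -3.01), while Adm, the hypoxia-induced peptide adrenomedullin, was 5.16 and 5.25 TPM in DBA, 0 and 0.025 TPM in B6 and 5.88 and 4.68 TPM in the knockout.

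Alternative activation genes, induced by interleukin-4, were higher in 5 and lower in 4 of 11 tested (5 and 5 under quantile normalisation), and in 0 and 2 by the stricter rule. Chil3, a chitinase-like protein, was listed at 0 in both DBA libraries, against 1.53 and 3.75 TPM in B6 and 8.07 and 5.07 TPM in the knockout. Osteoclast genes were higher in 1 and lower in 2 of 8, and Dcstamp, a cell fusion protein, was 2.13 and 1.65 TPM in DBA, 17.3 and 29.1 TPM in B6 and 0.433 and 0.156 TPM in the knockout (log2 fold change -3.03). Ly6 family genes were higher in 0 and lower in 2 of 6, among them Plaur, the urokinase receptor, with 19.2 and 18.6 TPM in DBA, 46.6 and 71.7 TPM in B6 and 21.4 and 22.9 TPM in the knockout.

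Markers of other cell types were low beside the macrophage genes. Neutrophil markers were higher in 1 and lower in 5 of 7 tested, and in 0 and 5 by the stricter rule, with a sum of 75.6 and 73.2 TPM in DBA, 63.7 and 88.3 TPM in B6 and 164 and 113 TPM in the knockout, where Csf3r was the highest member in each group; Ly6g was at 0 in both libraries of each group. Dendritic cell markers were higher in 1 and lower in 2 of 5, with sums of 81.7 and 76.8 TPM in DBA, 69.9 and 109 TPM in B6 and 103 and 105 TPM in the knockout, and Xcr1 was at 0 in both DBA libraries. Lymphocyte markers were higher in 2 and lower in 0 of 3, with sums of 209 and 237 TPM in DBA, 119 and 171 TPM in B6 and 159 and 151 TPM in the knockout, led by Il7r, while Cd3d, Cd3e and Cd8a were at 0 in both strains. Mast cell markers were higher in 0 and lower in 2 of 2, with sums of 0.191 and 0.162 TPM in DBA, 4.52 and 5.43 TPM in B6 and 2.15 and 2.09 TPM in the knockout, and Cma1 was at 0 in both strains. Those 2, Kit and Prss34, stayed below 1 TPM in every DBA library and passed the filter only through other groups. Their direction was therefore largely set in advance. The same held for Ngp and Ltf among the neutrophil markers called lower, and for Siglech among the dendritic cell markers called lower. The log2 fold change of Siglech, -0.71, was -0.26 without the B6 library marked F. Erythroid markers had 1 gene tested, Epor, which was higher in DBA, with the haemoglobin genes of the list at 0 in both strains. Endothelial markers were higher in 1 and lower in 1 of 3, with sums of 16.8 and 19.3 TPM in DBA, 28.2 and 32.2 TPM in B6 and 21.2 and 23.8 TPM in the knockout, and Emcn was at 0 in both strains. Of 5 sex-linked genes 3 were higher in DBA and 0 lower, among them Uty and Kdm5d of the Y chromosome, whose calls were lost without the B6 library marked F (adjusted p = 0.189 and 0.205), without DBA replicate 1 (0.0567 and 0.0760) and without DBA replicate 2 (0.111 and 0.0976). The part of such cells in the strain differences was not tested.

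The hyperoxia cultures gave the same strain comparison in 4 other libraries, with the same date codes. There 7462 genes (60.6%) were called, 5736 higher in DBA (46.6%) and 1726 lower (14.0%). Of the 7003 room-air calls 5774 were called in the same direction in hyperoxia, which is 82.5% of the room-air calls and 77.4% of the hyperoxia calls, and 30 in the opposite one. Against the knockout in hyperoxia, 2676 genes (21.7%) were called, 1713 higher in DBA (13.9%) and 963 lower (7.82%), and 1797 of the room-air calls were among them in the same direction, 25.7% of the room-air calls and 67.2% of these, and 251 in the opposite one. Of the 150 genes that met the stricter rule with a log2 difference of at least 2 in room air, 148 were called in the same direction in hyperoxia. Ifi202b, for example, was 213 and 244 TPM in DBA and 0 and 0 TPM in B6 in hyperoxia, and Gpnmb was 175 and 165 TPM in DBA and 4995 and 7207 TPM in B6. Of the 31 mitosis genes, 17 were lower in DBA in hyperoxia and 1 higher. Of the 34 DNA replication genes, 8 were lower in DBA in hyperoxia and 7 higher, with a median log2 fold change of -0.06.

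The strain difference itself changed with oxygen in 120 genes (0.974%), 52 (0.422%) with a more positive and 68 (0.552%) with a more negative DBA-minus-B6 value in hyperoxia. Col1a2 was 15.5 and 16.7 TPM in DBA and 0 and 0.014 TPM in B6 in hyperoxia, beside the room-air values above (interaction -1.22 on the log2 scale, adjusted p = 0.0351). H2-Ea-ps was 63.3 and 66.8 TPM in DBA and 0 and 0 TPM in B6 in hyperoxia (interaction -1.13, adjusted p = 0.0197). Of the tested stromal markers 4, Acta2, Col1a2, Cxcl12 and Pdgfra, had a smaller strain difference on this scale in hyperoxia and 0 a larger one. B6 levels of these 4 were below 0.5 TPM in both airs, so the smaller difference followed the fall in DBA. In the knockout Col1a2 also fell, to 12.5 and 15.6 TPM in hyperoxia, and Acta2 fell from 28.8 and 23.5 TPM to 8.56 and 10.2 TPM. The count of 120 rested on single libraries. It was 19 without the B6 room-air library marked MF, 208 without that marked F, 8 without the B6 hyperoxia library marked MF and 50 without that marked F. It was 7 without DBA room-air replicate 1, 198 without replicate 2, and 0 without either DBA hyperoxia replicate, where limma gave 1891 and 1384 genes at an unadjusted p under 0.05.

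In lungs of room-air pups, 8804 of 15623 genes tested (56.4%) differed between the strains, 3365 higher in DBA (21.5%) and 5439 lower (34.8%). By the column names the 4 DBA lungs were all male, and the B6 males and females carried different date codes. No date code was shared by DBA and B6 lungs, so strain and date code cannot be told apart in lung either. Of the 6837 macrophage calls tested in lung, 1857 (27.2%; 26.8% of the lung calls tested in macrophages) were called in the same direction there and 2267 (33.2%) in the opposite one. Of the large differences by the stricter rule 140 were tested in lung, and of these 81 were called in the same direction, 25 in the opposite one and 34 were not called.

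Ifi202b was 4.72, 3.76, 4.75 and 3.94 TPM in the 4 DBA lungs and 0, 0, 0 and 0.35 TPM in the 4 B6 lungs. H2-Ea-ps was 108, 138, 122 and 129 TPM in DBA lungs and 0, 0, 0.067 and 0.08 TPM in B6 lungs. Trim12a was 0.094, 0.036, 0 and 0 TPM in DBA lungs and 26.4, 30.3, 32.6 and 29.4 TPM in B6 lungs. In all 3 the strains did not overlap in lung or in macrophages. Rpl29 was 1.4, 1.91, 1.18 and 1.16 TPM in DBA lungs and 181, 199.99, 165 and 179.7 TPM in B6 lungs, and Mndal was 0.037, 0.029, 0.497 and 0.601 TPM in DBA lungs and 23, 30.6, 42.5 and 32.2 TPM in B6 lungs. Gpnmb was 0.15, 0.386, 0.453 and 0.274 TPM in DBA lungs and 1.19, 1.92, 2.24 and 2.2 TPM in B6 lungs, a log2 fold change of -1.12 (adjusted p = 2.74e-05).

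Glo1 was 60.1, 68.7, 63.5 and 63.4 TPM in DBA lungs and 38.2, 40.1, 39.4 and 46.3 TPM in B6 lungs, again higher in DBA (adjusted p = 3.33e-05). Stab2 was higher in DBA in both tissues (lung log2 fold change 3.50, adjusted p = 6.59e-09), whereas Marco, higher in DBA macrophages, was lower in DBA lung (lung log2 fold change -2.98, adjusted p = 2.77e-06). Of the tested stromal markers 2 were higher and 4 lower in DBA lung, of 28 sterol and fatty acid genes 0 and 17, of 31 mitosis genes 0 and 27, and of 30 class I genes 15 and 4. Levels were not compared between the tissues, whose tables were normalised separately.

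**Figure D5:**
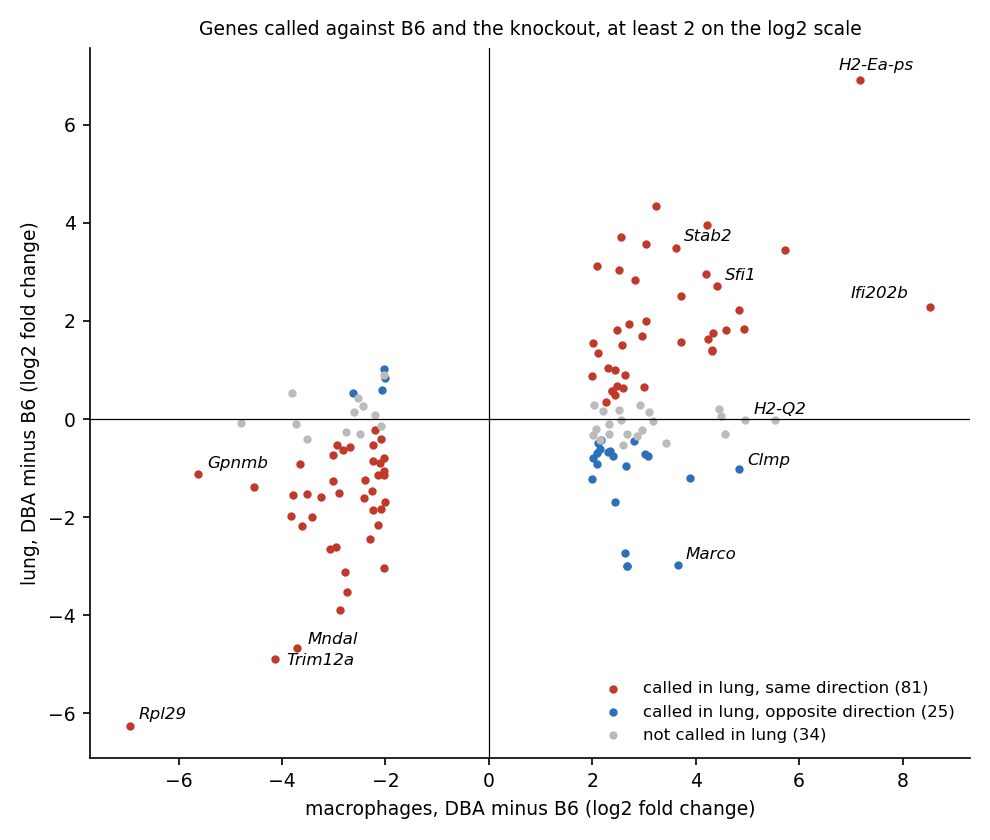
log2 fold change of DBA over B6 in lung (vertical axis, 4 lungs a strain) against macrophages (horizontal axis, 2 libraries a strain) for the 140 genes called against B6 and the knockout with a macrophage difference of at least 2 that were tested in lung. Ifi202b and H2-Ea-ps lie at the upper right and Trim12a, Mndal and Rpl29 at the lower left, with 81 genes in the same direction and 25 in the opposite one.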

How the data were processed

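The labels describe poly(A)-enriched RNA from cultured macrophages and lungs, and the submitters' processing notes name STAR, HOMER, Bowtie2 and the mm10 genome, with no versions or roles. The authors deposited TPM values, 1 row for each of 24940 transcripts with its symbol and position; columns summed to 529220 to 555113 in the macrophage table, so they do not reach the full TPM total. Levels of 2 genes are comparable per length within a library. Libraries were assigned by the strain and oxygen in their column names; the B6 columns could not be tied to single titled replicates. No TPM value entered a count model.

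Genes with at least 1 TPM in at least 2 of the 12 macrophage libraries (3 of 15 in the lung table, fitted alone) were tested with limma 3.58.1 in R 4.3.3 on log2(TPM + 1), 1 mean per group, a variance trend, 6 residual degrees of freedom in macrophages and Benjamini-Hochberg adjustment over all genes tested. The scale understates the change of low genes. The rule for named genes took known strain alleles, the 10 largest rises and falls of at least 5 TPM, genes restricted to 1 strain and up to 4 called members of each of 35 lists. The members and lists were chosen with earlier results of these data known, and the stricter rule that adds the knockout was added after seeing the data. Alternatives were quantile normalisation, a pseudocount of 0.1, no filter on low values, no variance trend, a log2 change of at least 1, only the compared groups, each library left out, and, for the interaction, a replicate block. The script was tested on simulated data. Promoter windows are RefSeq's. Depth was estimated from the steps between low values, and intervals for counting error were not computed. Peak files were not used here. A few genes that the naming rule took are not reported here.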

Additional observations from a re-analysis of the deposited data

Results flagged for a closer look

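The strain difference of 4 leading genes differed between hyperoxia and room air by the interaction test of limma. The log2 interaction was -1.13 for H2-Ea-ps (adjusted p = 0.0197), -1.11 for Bgn (adjusted p = 0.0449), -1.22 for Col1a2 (adjusted p = 0.0351) and -1.15 for Ctgf (adjusted p = 0.0423). Each was higher in DBA in both airs, by less in hyperoxia on the log2(TPM + 1) scale. With B6 levels near 0, the size of a difference on this scale depends on the added 1. Over all genes, the interaction count of 120 was 9 with a pseudocount of 0.1. B6 levels of Bgn, Col1a2 and Ctgf were below 0.5 TPM in both airs, and the knockout levels of these genes were also lower in hyperoxia. The count of genes with such an interaction was 0 without either DBA hyperoxia replicate.

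Ahr and Myo5a, higher in DBA macrophages by 0.76 and 0.93 on the log2 scale, were lower in DBA lungs, by -1.08 in each. The difference between the tissues was not tested.

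Of 18 sets of 4 lung libraries examined, each a gene in a strain, 1 held a library far from the others: Ifi202b was 0.35 TPM in the highest B6 lung and listed at 0 in the other 3. Dixon's test at its 95% critical value picks a library by chance in about 1 in 20 sets of values without ties. With 3 libraries tied at 0, any value above 0 in the remaining library is picked, so that rate does not apply to this set.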

How the results depend on the processing

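The room-air count of 7003 stayed between 6015 and 6696 with any 1 library left out (4203 to 4864 higher, 1637 to 1961 lower). With only the 4 compared libraries in the fit it was 4952 (3553 and 1399), and 9 named genes lost their calls: Trem2, Apobec3, Nnt, Siglech, Il7r, Uty, Kdm5d, Gbp6 and Clec2d, with adjusted p between 0.0585 and 0.233. Quantile normalisation gave 3257 higher and 3081 lower, a log2 change of at least 1 gave 1395 (911 and 484), and the rule that adds the knockout gave 1914 (1276 and 638). In hyperoxia the last 2 gave 1466 and 1914, and leaving out a library 6000 to 6708. The interaction count of 120 was 9 with a pseudocount of 0.1, 187 with no variance trend, 61 with a log2 change of at least 1, 0 with only the compared groups in the limma fit (1539 genes at an unadjusted p under 0.05), and 0 to 208 with a library left out. In lung a log2 change of at least 1 gave 1850, and leaving out a library 7989 to 8873. Of 196 named genes, 94 lost their call under the rule that adds the knockout. Nnt alone turned its direction under these alternatives, to -0.00387 (adjusted p = 0.972) under quantile normalisation. The causes were not tested. Between the strains no paired analysis was possible, because both B6 columns of a group carry the number 1 and the lung numbers restart within each date code. Across the airs, libraries of a strain share a mark, and a replicate block on it, added after seeing the data, gave 555 interaction genes, 117 of the 120 among them. Same-marked libraries deviated from their group means with correlations of 0.079 in DBA, 0.385 in B6 and -0.051 in the knockout across 12320 genes. The low values in DBA and the knockout do not show pairing there, and with 2 libraries a group they cannot exclude it. With 2 libraries a group, few degrees of freedom limit small differences.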
